A study of Mus musculus with 4 samples.

Results

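Chemokine ligand genes were examined in RNA-seq read counts from MIN6 cells, a mouse insulinoma line in wide use for beta cell studies. The 10 genes were the rows of the deposited count table named Cxcl1, Cxcl2, Cxcl5, Cxcl10, Cxcl12, Cxcl16, Ccl2, Ccl5, Ccl7 and Cx3cl1, out of 23473 gene rows. The names were listed with results of the same contrast known, so the contrast of these 10 genes is given as a description and supports nothing. The lists of related genes were also chosen with earlier results of these data known, so their counts are descriptions as well. The TLX group was 2 libraries of cells stably overexpressing the orphan nuclear receptor TLX (gene symbol Nr2e1), and the control group was 2 libraries of MIN6 cells labelled wild type. Both groups grew in medium with 25 mM glucose and 15% serum. The promoter that drives the transgene, the number of clones and whether the control cells carry an empty vector are not given here by the labels or protocols. The labels do not say that the 2 libraries of a group came from separate cultures, so the spread between them may be technical.

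Chemokines are small secreted or membrane-anchored proteins that bind receptors on leukocytes and direct where these cells move. They are grouped by the spacing of their first cysteines into CXC, CC and CX3C ligands. In islets, beta cells exposed to inflammatory cytokines are known to release some of them, and transcription factors of the NF-kB and interferon pathways are known to drive several of these genes.

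The 250 bases before the annotated start of Cxcl1, Cxcl10 and Cxcl2 are shown because Cxcl1 and Cxcl10 were well counted and lower with TLX, while Cxcl2, next to Cxcl1 in the genome, was hardly counted at all. The sequences are from RefSeq on build GRCm38.p6, written 5' to 3' on the strand of the gene. They lie at chr5:90890995-90891244 (plus strand) for Cxcl1, chr5:92348890-92349139 (minus strand) for Cxcl10 and chr5:90903649-90903898 (plus strand) for Cxcl2. The counts were made on mm9, so these positions belong to the sequences only. Capitals mark every match, on either strand, to the kappaB motif bound by NF-kB, the AP-1 motif TGANTCA, the interferon response motif GAAANNGAA and the TLX half-site AAGTCA.
Cxcl1: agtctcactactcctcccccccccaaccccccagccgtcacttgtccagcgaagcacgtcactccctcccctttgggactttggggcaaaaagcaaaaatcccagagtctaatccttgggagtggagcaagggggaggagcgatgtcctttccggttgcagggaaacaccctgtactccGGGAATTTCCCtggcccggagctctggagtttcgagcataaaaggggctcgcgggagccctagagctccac
Cxcl10: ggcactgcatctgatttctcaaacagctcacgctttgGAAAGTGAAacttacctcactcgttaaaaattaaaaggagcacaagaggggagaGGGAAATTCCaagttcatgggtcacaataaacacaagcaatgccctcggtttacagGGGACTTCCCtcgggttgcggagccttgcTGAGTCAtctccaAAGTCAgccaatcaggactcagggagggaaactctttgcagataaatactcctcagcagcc
Cxcl2: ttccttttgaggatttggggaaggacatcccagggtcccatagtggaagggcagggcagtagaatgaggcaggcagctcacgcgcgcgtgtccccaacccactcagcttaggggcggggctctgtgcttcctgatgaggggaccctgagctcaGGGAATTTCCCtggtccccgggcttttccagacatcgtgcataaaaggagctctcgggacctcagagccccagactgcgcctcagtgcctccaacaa

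Cxcl1 and Cxcl2 held the same run, GGGAATTTCCC, which matched the kappaB motif on both strands with the 2 matches overlapping. It began 71 bases before the start in Cxcl1 and 97 bases before it in Cxcl2. Cxcl10 held 2 kappaB matches, beginning 159 and 103 bases before the start, an interferon response match from 213, an AP-1 match from 74 and a TLX half-site match from 61. A promoter was matched by symbol for 5 of the 10 genes, the other two being Cxcl12 and Cx3cl1, neither of which held a match to any of the 4 motifs. A kappaB match was thus present in 3 of 5 promoters, against 3.9% of 32841 promoters of the same length. For AP-1, the interferon response and the TLX half-site it was 1 of 5 each, against 6.75%, 7.13% and 13.1% of all promoters. A match is a description of letters and does not show that a factor binds there.

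**Figure D1:**
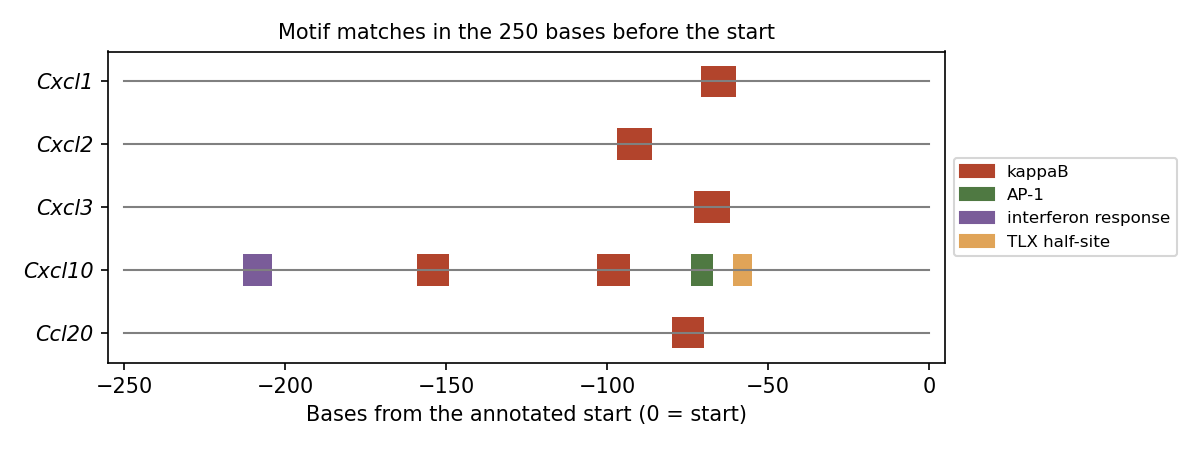
Motif matches along the 250 bases before the annotated start of 5 chemokine ligand genes (horizontal axis: bases from the start; coloured blocks: matches on either strand). Cxcl1, Cxcl2, Cxcl3 and Ccl20 each hold a kappaB match within 100 bases of the start, and Cxcl10 holds matches to all 4 motifs. All 5 genes drawn hold a kappaB match, while Cxcl12 and Cx3cl1, not drawn, hold none. Of 23 ligand genes outside the list with a promoter, only Cxcl3, Ccl20 and Ccl9 (not drawn) hold one.

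The gene rows of a library summed to 8490145 and 8136185 counts in TLX and 8435976 and 9788646 in control. Nr2e1 was counted 338 and 281 times in TLX libraries and 8 and 10 times in control libraries, a log2 fold change of 5.22 (SE 0.20; edgeR adjusted p = 3.18e-14), which goes with the labels. Among all 11024 genes tested, 16.8% passed at an adjusted p under 0.05 in either direction. Most of its markers did not bear out the beta cell label. Of 20 beta cell genes 13 were at 0 in all 4 libraries, among them Iapp, Slc2a2 and Nkx6-1. The 4 tested genes, Ins1, Ins2, Pdx1 and Mafa, were low, averaging 9.54, 4.86, 4.05 and 1.91 CPM, and none passed. CPM is the read count scaled to a common library size. Of 20 mesenchymal genes 10 were tested, with Col1a2 and Vim averaging 3523 and 1716 CPM. The other 10, among them Col3a1, Dcn and Postn, had at most 14 counts in any library, and Lum was at 0. With TLX 2 mesenchymal genes rose (Sparc and Col1a2) and 3 fell (Fn1, Prrx1 and Pdgfrb). Col1a2 did not pass once any 1 of the 4 libraries was left out, and Pdgfrb did not pass in DESeq2 or without control replicate 1. The list summed to 8712 and 8378 CPM in TLX and 8136 and 7740 CPM in control. Their part in the chemokine values was not tested. Of the 18 leukocyte genes listed, 17 had a row, and the defining gene Ptprc had 0 and 1 counts in TLX and 1 and 1 in control. Emr1, Fcer1g and S100a9 were at 0 in all 4 libraries. The leukocyte list summed to 106 and 106 CPM in TLX and 123 and 124 CPM in control, nearly all of it Cd68, Cd14 and Lyz2. Of these Cd68 fell (log2 fold change -0.53; edgeR adjusted p = 0.000391), and the part of such cells in the chemokine values was not tested. The 12 endothelial genes summed to 9.14 and 8.07 CPM in TLX and 7.79 and 8.26 CPM in control.

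Of the 10 chemokine ligand genes, 5 had enough counts to be tested and 5 were at or near 0. In each of the 5 tested genes both TLX libraries lay below both control libraries. The largest log2 fold change was that of Cxcl1, followed by those of Cxcl10, Ccl2, Ccl7 and Ccl5. In the fit over all genes 4 of the 5 passed in the lower direction and 0 in the higher, where 9.04% of all tested genes passed as lower. Both TLX libraries lay below both control libraries in 28.6% of all tested genes. Since the genes were listed with this contrast known, nothing is read from these counts. In bulk RNA, fewer cells of a type and less RNA per cell cannot be told apart.

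**Figure D2:**
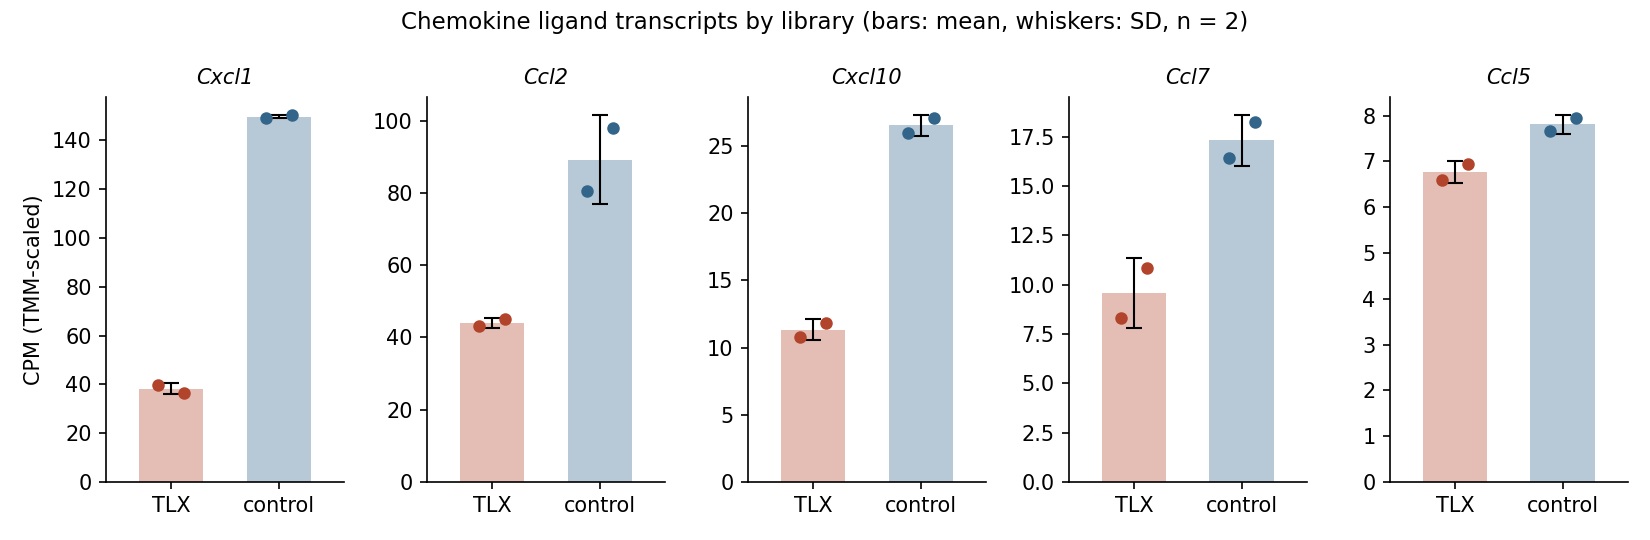
Levels of the 5 counted chemokine ligand genes in CPM on TMM-scaled library sizes, with TLX left of control (points: libraries; bars: mean; whiskers: SD, n = 2). Cxcl1 stands at 39.8 and 36.6 CPM in TLX against 149 and 150 CPM in control, and Ccl5 at 6.59 and 6.94 CPM against 7.67 and 7.96 CPM.

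Cxcl1 belongs to the CXC ligands that carry the ELR motif and attract neutrophils through the receptor Cxcr2. It was counted 344 and 290 times in TLX libraries and 1246 and 1492 times in control libraries. That is 38.2 ± 2.3 CPM in TLX and 149.8 ± 0.7 CPM in control (SD, n = 2), a log2 fold change of -1.97 (SE 0.09). Within each group the libraries lay close together, and the gap between groups was many times the spread. Ranked from the lowest log2 fold change, Cxcl1 stood 14th of 11024 tested genes.

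The other 2 ELR ligands of the list were almost uncounted. Cxcl2, another ligand of Cxcr2, had 0 and 0 counts in TLX and 1 and 4 in control. Cxcl5, which also binds Cxcr2, had 3 and 0 counts in TLX and 4 and 3 in control. These counts are at or near the limit that 0 counts allow (3 counts, or 0.347 and 0.379 CPM in TLX and 0.359 and 0.302 CPM in control; counting error only), so a difference was not detectable at this depth. The deposited files do not state how reads shared between such related genes were assigned, so the split among Cxcl1, Cxcl2 and Cxcl3 is uncertain.

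Cxcl10, an interferon-induced ligand of Cxcr3, a chemokine receptor of activated T cells, was counted 93 and 94 times in TLX libraries and 217 and 269 times in control libraries. Its level was 11.3 ± 0.8 CPM in TLX and 26.5 ± 0.8 CPM in control (SD, n = 2), a log2 fold change of -1.23 (SE 0.13). The groups did not overlap, and the SD within each was far below the gap between them. Among genes known to act in the interferon response that induces Cxcl10, Stat2 and Irf7 rose with TLX, and Irf1 and Irf9 did not pass. Irf3 was lower with TLX in edgeR and in DESeq2 (log2 fold change -0.44 in both), passing in edgeR but not in DESeq2. Without TLX replicate 2 the log2 fold change of Irf3 was -0.37.

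Ccl2, which draws monocytes through Ccr2, ranked next to Cxcl1 in control counts. It was counted 372 and 357 times in TLX and 672 and 973 times in control. Its level was 44.0 ± 1.4 CPM in TLX and 89.2 ± 12.4 CPM in control (SD, n = 2), a log2 fold change of -1.02 (SE 0.10). The 2 control libraries stood apart, at 80.5 and 98.0 CPM, but each was far above the TLX libraries at 43.0 and 45.0 CPM. Without control replicate 1 the log2 fold change was -1.16, and without control replicate 2 it was -0.87.

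Ccl7, another monocyte-attracting CC ligand encoded beside Ccl2, was less abundant. It was counted 72 and 86 times in TLX and 137 and 181 times in control. Its level was 9.59 ± 1.78 CPM in TLX and 17.3 ± 1.3 CPM in control (SD, n = 2), a log2 fold change of -0.86 (SE 0.16). The groups did not overlap, and the value was -0.68 without TLX replicate 1 and -1.06 without TLX replicate 2. As for Cxcl1, reads shared with related CC genes could have been split between them.

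Ccl5, a CC ligand that attracts T cells and monocytes, differed least. It was counted 57 and 55 times in TLX and 64 and 79 times in control. Its level was 6.77 ± 0.25 CPM in TLX and 7.81 ± 0.20 CPM in control (SD, n = 2), a log2 fold change of -0.21 (SE 0.18) with a 95% interval from -0.59 to 0.17. The groups did not overlap, though by little, and Ccl5 did not pass in the fit over all genes. The interval includes no difference as well as a fall, so a difference of that size was not resolved by these libraries.

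The membrane-anchored and homeostatic ligands were not expressed at a level these libraries could measure. Cxcl16, a membrane-bound ligand of Cxcr6, had 2 and 2 counts in TLX and 1 and 1 in control. Cx3cl1, or fractalkine, had 0 and 0 counts in TLX and 1 and 0 in control. Cxcl12, the ligand of Cxcr4 made by many stromal cells, had 0 counts in all 4 libraries. No fold change is given for these genes, since both groups are at or under 3 counts a library.

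The order of levels per transcript length differed between the groups. In TLX libraries Ccl2 came first at 54.6 ± 1.8 CPM per kilobase and Cxcl1 next at 40.2 ± 2.4. Ccl5 (12.4 and 13.1), Ccl7 (10.4 and 13.6) and Cxcl10 (9.78 and 10.8) followed in TLX, and among these the values of Ccl7 overlapped those of both neighbours. In control libraries Cxcl1 came first at 157.8 ± 0.7 CPM per kilobase, then Ccl2 at 110.7 ± 15.3, Cxcl10 at 24.1 ± 0.7, Ccl7 at 21.7 ± 1.6 and Ccl5 at 14.7 ± 0.4 (SD, n = 2). No 2 neighbours in the control order overlapped.

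Seen as a share of the counts of the 10 genes together, Cxcl1 made up 36.5% and 32.8% in TLX and 53.2% and 49.7% in control. Ccl2 made up 39.4% and 40.4% in TLX and 28.7% and 32.4% in control. Ccl5 took 6.04% and 6.22% in TLX and 2.73% and 2.63% in control. The share of Cxcl10 hardly moved, at 9.86% and 10.6% in TLX and 9.26% and 8.96% in control. The 10 genes summed to 109 and 112 CPM in TLX and 281 and 302 CPM in control.

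**Figure D3:**
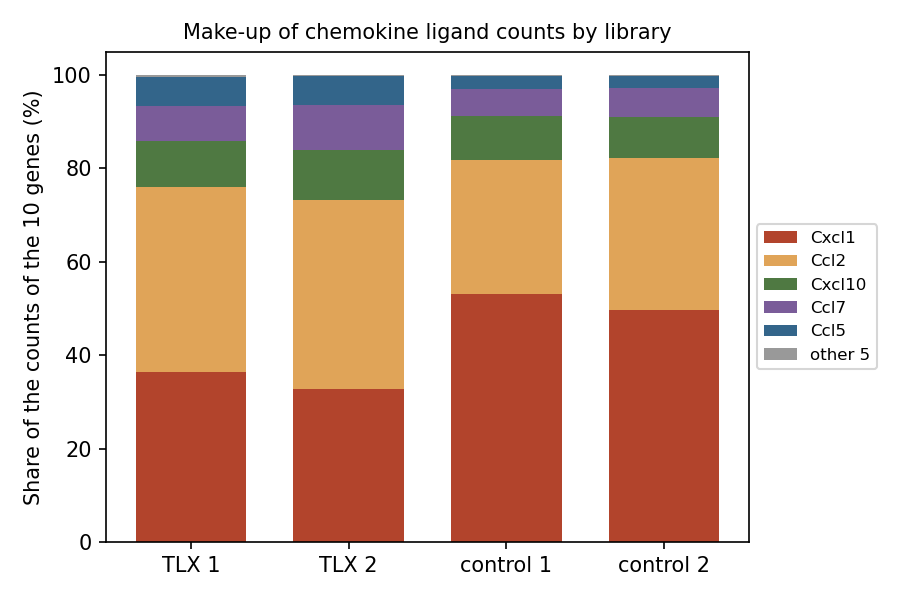
Share of the counts of the 10 chemokine ligand genes taken by each gene (vertical axis, percent), in the 2 TLX libraries on the left and the 2 control libraries on the right. Cxcl1 takes 36.5% and 32.8% in TLX and 53.2% and 49.7% in control; the 5 genes at or near 0 are grouped and barely visible.

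Among tested genes that average at least 5 CPM, those whose log2 CPM profile over the 4 libraries lay closest to Cxcl1 were Cdsn (Euclidean distance 0.210), Traf1 (0.313), Car6 (0.367), Angptl4 (0.383) and Ddit3 (0.432). Traf1 is an adaptor of tumour necrosis factor receptors, Angptl4 an inhibitor of lipoprotein lipase and Ddit3 the stress factor CHOP. Their log2 fold changes were -2.08, -2.11, -1.63, -1.75 and -1.59 in the same order. With 4 libraries in 2 groups, such likeness mostly restates a similar difference between groups.

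Beside the 10 genes, 30 other chemokine ligand genes had a row. Over all 40 ligand genes, 14 were at 0 in all 4 libraries, 19 had some counts but fewer than 10 in each library, and 7 reached 10 in some library and were tested. Of the 2 tested outside the list, 0 rose and 1 fell, where 16.8% of all genes passed in either direction. Ccl20, which attracts cells bearing Ccr6, fell to 1.16 and 0.883 CPM in TLX, against 4.67 and 8.26 CPM in control (10 and 7 counts in TLX, 39 and 82 in control). Its log2 fold change was -2.67 (SE 0.35; edgeR adjusted p = 9.14e-06). Both TLX libraries lay under the cutoff of the count filter (1.18 CPM), so Ccl20 was tested only through its control libraries. The control libraries differed for this gene, and the value ranged from -2.99 to -2.17 when single control libraries were left out. Ccl25, a ligand of Ccr9, stood at 6.79 ± 1.10 CPM in TLX and 6.69 ± 0.65 CPM in control (SD, n = 2; log2 fold change 0.01, SE 0.20; edgeR adjusted p = 0.984). Among the barely counted genes, Cxcl3, of the same ELR family as Cxcl1, had 3 and 0 counts in TLX and 6 and 9 in control.

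**Figure D4:**
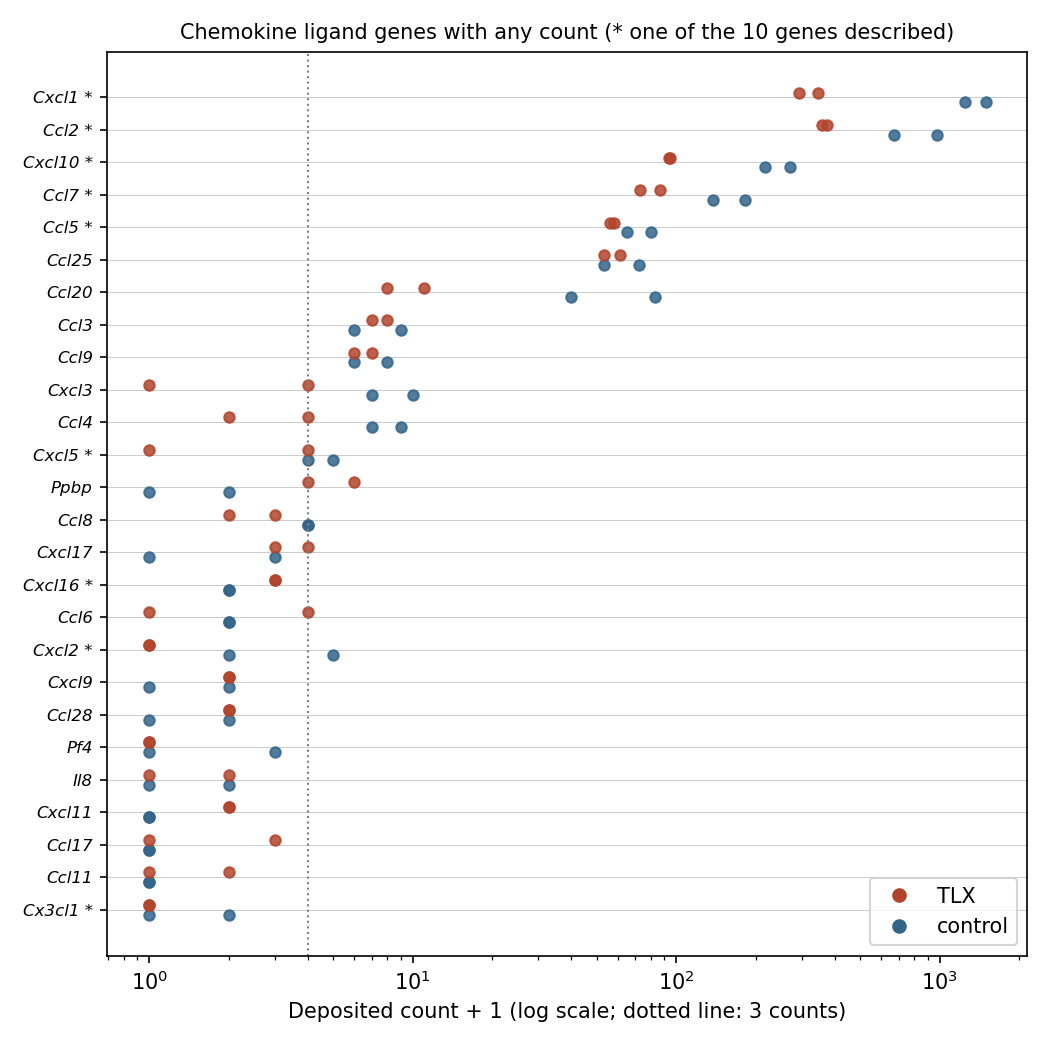
Deposited counts plus 1, on a log axis, of each chemokine ligand gene with any count (rows; asterisks mark the 10 genes described; points: the 2 TLX and 2 control libraries; dotted line: 3 counts). Counts above 50 in a control library are seen for Cxcl1, Ccl2, Cxcl10, Ccl7, Ccl5, Ccl25 and Ccl20, and the row Il8 carries the table's older name for Cxcl15.

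Receptors for these ligands were nearly absent. Of 23 chemokine receptor genes 13 were at 0 in all 4 libraries, Cxcr4 and Ccr2 among them, and 1 was tested. That gene, Ccr1, a receptor of Ccl5 and Ccl7, fell to 14.9 ± 2.7 CPM in TLX, against 24.1 ± 1.1 CPM in control (SD, n = 2; log2 fold change -0.70, SE 0.14; edgeR adjusted p = 0.000761). Cxcr2, the receptor of Cxcl1, had 0 and 2 counts in TLX and 0 and 1 in control. Ccrl2, which binds a chemoattractant without signalling itself, had 0 and 0 counts in TLX and 4 and 7 in control.

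Regulators of chemokine transcription held changes in both directions. Of 25 tested genes 3 rose, 12 fell and 10 did not pass, beside 7.79% and 9.04% of all tested genes that rose and fell. The median log2 fold change was -0.31, beside 0.00057 over all tested genes. This list was chosen with earlier results of these data known, so nothing is read from its distance from these shares. The AP-1 subunit gene Jun fell to 89.8 ± 5.9 CPM in TLX, against 167 ± 8 CPM in control (log2 fold change -0.90, SE 0.08; edgeR adjusted p = 4.53e-08). Tnfaip3, the NF-kB inhibitor A20, fell to 27.4 ± 2.5 CPM in TLX, against 45.3 ± 0.6 CPM in control (log2 fold change -0.73, SE 0.10; adjusted p = 2.48e-05 in edgeR).

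Among the NF-kB subunit genes, Relb fell to 38.9 ± 1.5 CPM in TLX, against 59.2 ± 1.8 CPM in control, and Rel to 4.53 ± 0.19 CPM, against 7.39 ± 0.80 CPM. The main subunit gene Rela did not pass, at 140 ± 3 CPM in TLX and 159 ± 5 CPM in control (edgeR adjusted p = 0.11). Nfkb1 and Nfkb2 did not pass either (edgeR adjusted p of 0.449 and 0.0931). Cebpd, an acute-phase transcription factor gene, had a log2 fold change of -0.67 (SE 0.09; edgeR adjusted p = 7.56e-06). Of the interferon pathway, Irf7 rose to 351 ± 26 CPM in TLX, against 239 ± 8 CPM in control (edgeR adjusted p = 2.31e-05), and Stat2 rose as well. Irf3, another factor of that pathway, fell to 30.6 ± 2.3 CPM in TLX, against 41.8 ± 5.6 CPM in control (log2 fold change -0.44; edgeR adjusted p = 0.00723), but did not pass in DESeq2 or without TLX replicate 2 (adjusted p of 0.0671 and 0.0895). Irf1, also known to induce Cxcl10, stood at 32.2 ± 1.3 CPM in TLX and 28.9 ± 5.1 CPM in control and did not pass (edgeR adjusted p = 0.371, and 0.0326 without control replicate 1), nor did Irf9 (log2 fold change -0.07; edgeR adjusted p = 0.668). The 12 genes that fell numbered 7 without TLX replicate 2, 9 without TLX replicate 1 and 8 in DESeq2, while 3 rose in each of these.

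**Figure D5:**
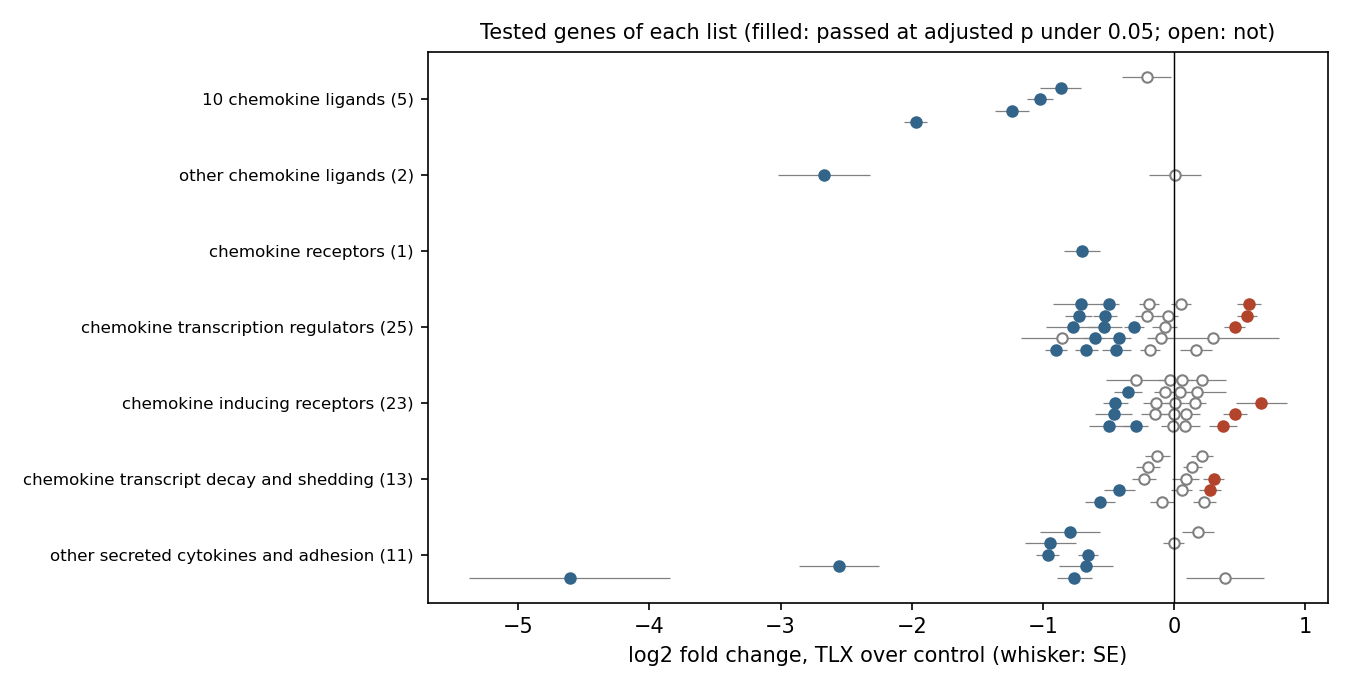
Log2 fold change of TLX over control for each tested gene of the chemokine ligand list and 6 related lists (points: genes; whiskers: SE; filled blue: lower and passing, filled red: higher and passing, open: not passing; numbers of tested genes in brackets). Of the regulators 12 are lower and 3 higher, and of the other cytokine and adhesion genes 8 are lower and 0 higher. All lists were chosen with earlier results of these data known.

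Receptors and adaptors upstream of chemokine induction held changes in both directions. Among 23 tested genes 5 fell, 3 rose and 15 did not pass (background 9.04% and 7.79%), with a median log2 fold change of -0.0045. Il17ra, a receptor subunit for interleukin 17, fell to 33.9 ± 0.8 CPM in TLX, against 46.2 ± 2.5 CPM in control (edgeR adjusted p = 0.00237), and Ddx58, the RNA sensor RIG-I, rose to 104 ± 6 CPM, against 74.9 ± 7.5 CPM (edgeR adjusted p = 0.000736). Irak4, a kinase of interleukin 1 signalling, and Il1rap, a receptor subunit of that pathway, had log2 fold changes of 0.37 and 0.66 (edgeR adjusted p of 0.0194 and 0.0198). Il1r1, the signalling receptor of interleukin 1, and Myd88, its adaptor, fell, with log2 fold changes of -0.50 and -0.29 (edgeR adjusted p of 0.0252 and 0.0403). Ifngr2 and Tlr4 fell as well, with log2 fold changes of -0.35 and -0.46 (edgeR adjusted p of 0.0253 and 0.0268). Tnfrsf1a, the main receptor of tumour necrosis factor, stood at 169 ± 16 CPM in TLX and 151 ± 9 CPM in control and did not pass (edgeR adjusted p = 0.194). The count of 8 genes passing dropped to 4 without TLX replicate 1 and 5 without TLX replicate 2, and was 2 in DESeq2. Those 2 were Ddx58 and Il17ra. Over all genes 839 passed in DESeq2, against 1856 in the main fit. None of Irak4, Il1rap, Il1r1 and Myd88 passed in DESeq2 (adjusted p of 0.178, 0.213, 0.195 and 0.211).

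Genes for decay of chemokine transcripts and for shedding of membrane ligands changed in both directions. Among 13 tested genes 2 fell, 2 rose and 9 did not pass (background 9.04% and 7.79%), with a median log2 fold change of 0.06. Zfp36, or tristetraprolin, which speeds the decay of transcripts such as that of Cxcl1, fell to 22.3 ± 0.8 CPM in TLX, against 33.1 ± 3.3 CPM in control (log2 fold change -0.57; edgeR adjusted p = 0.00131). Its relative Zfp36l1 had a log2 fold change of -0.42, Mmp14 of 0.30 and Hnrnpd of 0.27 (edgeR adjusted p of 0.0156, 0.0121 and 0.0246), and none of these 3 passed in DESeq2 or without TLX replicate 1. The sheddase genes Adam10 and Adam17 did not pass (edgeR adjusted p of 0.621 and 0.551). The count of 4 was 1 without TLX replicate 1, 2 without TLX replicate 2, 1 in DESeq2 and 8 with the replicate number as a block.

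Several other secreted cytokine and adhesion genes fell with TLX. Among 11 tested genes 8 fell, 0 rose and 3 did not pass (background 9.04% and 7.79%), with a median log2 fold change of -0.76. Since these genes too were chosen with earlier results known, nothing is read from the distance from the background. Csf3, the granulocyte colony-stimulating factor, fell to 0.810 and 1.39 CPM in TLX, against 6.35 and 6.55 CPM in control (7 and 11 counts in TLX, 53 and 65 in control; log2 fold change -2.55, SE 0.30; edgeR adjusted p = 2.22e-06). Lif fell to 48.6 ± 3.2 CPM in TLX, against 94.5 ± 1.0 CPM in control, and Csf1, the macrophage growth factor, to 503 ± 7 CPM, against 793 ± 7 CPM (edgeR adjusted p of 4.53e-08 and 2.05e-06). Il6 was counted 1 and 0 times in TLX and 14 and 19 times in control (edgeR adjusted p = 0.000155). The TLX over control ratio was 0.0334, with an exact 95% counting interval from 0.000822 to 0.2. Csf3 and Il6 did not reach the count filter in both TLX libraries, so both were tested through their control libraries. The endothelial selectin genes Sele and Selp, Il11 and Il34 made up the rest, and Vcam1, Il15 and Mif did not pass (edgeR adjusted p of 0.337, 0.415 and 0.977). The count of 8 was 5 in DESeq2, which gave no adjusted p for Il6, and 3 when a mean of at least 10 CPM was required.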

How the data were processed

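RNA-seq counts of 2 TLX and 2 control libraries were used. TopHat2 2.0.13 and the mouse build mm9 were used, per the submitters' processing notes; for the counting program, annotation and strand setting, nothing is given in the sources used here. Deposited by the authors were whole-number read counts per feature without normalization, with a feature length, per the file headers. Of 56826 rows, 33353 are FANTOM3 clone rows, which can repeat reads of genes and were left out, with 23.3% to 25.1% of a library's counts. Each library was mapped to its column by its title.

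Gene rows passed filterByExpr at a minimum count of 10, and after TMM scaling were tested in edgeR 4.0.16 (quasi-likelihood F-test, 2 residual degrees of freedom, R 4.3.3), with Benjamini-Hochberg adjustment over 11024 genes at 0.05. SEs are the log2 fold change divided by the square root of F. CPM use TMM-scaled library sizes, and CPM per kilobase divide by the deposited length. The script was tested on simulated data. The median gene-by-gene chi-square was 0.718 between the TLX libraries and 1.07 between the control libraries, against 0.455 for sampling noise.

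The 10 genes and all lists were chosen with earlier results of these data known. Genes named are these 10, Nr2e1, up to 4 of smallest p per list, the 5 nearest to Cxcl1, leading markers and ligand or receptor genes with 10 counts; others were named after their values were seen. Some genes that this rule would name are not reported here. Among list genes 6 were matched through older symbols and 1 had no row. Alternatives were DESeq2 1.42.0 (size factors and Wald test), limma-voom (limma 3.58.1), no normalization factors, other filters, the replicate number as a block and leaving out each library.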

Additional observations from a re-analysis of the deposited data

How the results depend on the processing

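Of the 10 chemokine ligand genes, the same number, 4, passed in all 11 alternatives, and none of the log2 fold changes of the 5 tested genes turned direction or crossed the threshold where tested (Ccl5 was too low for the filter of 10 CPM). Over the alternatives they ranged from -2.03 to -1.91 for Cxcl1, -1.30 to -1.16 for Cxcl10, -1.16 to -0.87 for Ccl2, -1.06 to -0.68 for Ccl7 and -0.25 to -0.17 for Ccl5. The number of genes passing overall was 839 in DESeq2's Wald test and 1024 to 2053 with single libraries left out (1039 without TLX replicate 1 and 1024 without TLX replicate 2). The main fit passed 1856, so the lower DESeq2 counts of single lists stand beside a drop over all genes. DESeq2 gave no adjusted p for 855 genes, Il6 among them. In DESeq2 2 chemokine-inducing receptor genes, 1 gene of decay and shedding and 5 other cytokine and adhesion genes passed. Leaving out single libraries gave 4 to 7, 1 to 5 and 6 to 10 in these lists. Without a filter 2 chemokine receptor genes passed, against 1 in the main fit, and the chemokine-inducing receptor genes passing stayed at 8. With a mean of 10 CPM required, 3 cytokine and adhesion genes and 0 other ligands passed, since Ccl20 and Ccl25 were then not tested. Ccl25, which did not pass, was at -0.00078 with total counts alone and at -0.16 to 0.17 with single libraries left out. Irf1 and Irf9 ranged from -0.012 to 0.35 and from -0.19 to 0.027 in the same way. The cause of these shifts was not tested, beyond the fewer genes or libraries they use. With the replicate number as a block, 2982 genes passed, 8 of them in the decay and shedding list. Deviations of same-numbered libraries from their group means correlated at 0.108 across genes, and nothing in the labels says that a number marks a shared culture. Counts of 4 or fewer in a library limit what can be said of Cxcl2, Cxcl5, Cxcl12, Cxcl16 and Cx3cl1, and 2 libraries a group limit every error given.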

Other observations

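Genes next to the chemokine ligands in the genome did not share one pattern. They were looked up by order in the RefSeq table of GRCm38.p6 after the values were seen, and no position is used. Ppbp, Pf4 and Cxcl3, which lie between Cxcl5 and Cxcl1, had at most 9 counts in any library. Cxcl15, counted under its older name Il8, also lies there and had fewer than 10 counts in each library. On the other side of Cxcl2, Mthfd2l stood at 8.42 CPM in TLX and 9.62 CPM in control and did not pass (edgeR adjusted p = 0.526). Ereg, a ligand of the epidermal growth factor receptor family a few genes further on, was at 61.4 CPM in TLX and 129.8 CPM in control (log2 fold change -1.08; edgeR adjusted p = 3.79e-08). Nup54 and Scarb2, beside Cxcl10, had log2 fold changes of -0.0022 and -0.01 (edgeR adjusted p of 0.99 and 0.94). Ccl11, Ccl12 and Ccl8, which follow Ccl7, had at most 3 counts in any library. Mmp28, near Ccl5, was counted 11 and 11 times in TLX and 33 and 43 times in control (log2 fold change -1.64; edgeR adjusted p = 0.000653). Taf15, which lies between Mmp28 and Ccl5, had a log2 fold change of -0.17 and did not pass (edgeR adjusted p = 0.189). On the other side of Ccl5, Ccl9, Ccl6 and Ccl3 had at most 8 counts in any library.

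One FANTOM3 clone row, with a length of 4527 bases against 531 for Ccl5, had 57 and 56 counts in TLX and 63 and 79 in control, within 1 count of the Ccl5 row in every library. No clone row came that close to Cxcl1, Cxcl10, Ccl2 or Ccl7.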
